A study of Homo sapiens with 28 samples.

Results

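The RNA of 10 genes of the transforming growth factor beta (TGF-beta) pathway was followed in LNCaP cells, an established human prostate cancer line that responds to androgen. The genes were taken by symbol from the deposited table of 61815 human genes, and were chosen with earlier results of these data known. They are the ligands TGFB1, TGFB2 and TGFB3, the receptors TGFBR1, TGFBR2 and TGFBR3, and the signal proteins SMAD2, SMAD3, SMAD4 and SMAD7. The 28 libraries form 8 groups from 2 experiments, and all cells were treated after androgen deprivation in medium whose serum was charcoal-stripped to remove steroids. In the 24 h experiment the groups of 3 libraries were vehicle (0.1% DMSO), 1 µM Senexin B, 0.1 nM R1881, and R1881 with Senexin B. In the 72 h experiment the groups of 4 libraries were vehicle (0.1% DMSO), 500 nM SNX631, 1 nM R1881, and R1881 with SNX631. R1881 is an androgen made by synthesis, and the other agents inhibit CDK8 and CDK19, the kinases of the Mediator kinase module that joins the Mediator complex of transcription. Doses follow the labels, and the study states a different one for Senexin B. All groups come from a single cell line of genotype WT. The labels call the replicates biological but do not say whether they were separate cultures, so p-values measure the spread between these libraries. Time, androgen dose, inhibitor and experiment differ together between the experiments and cannot be told apart.

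TGF-beta ligands are secreted in a latent form and, once released, bind the type II receptor TGFBR2, which then activates the type I receptor TGFBR1. TGFBR1 phosphorylates SMAD2 and SMAD3, which join SMAD4 and act on genes in the nucleus, while SMAD7 is induced by the pathway and inhibits it. TGFBR3, also called betaglycan, is a co-receptor without kinase activity that presents ligand to TGFBR2. In normal prostate epithelium the pathway restrains growth, and prostate cancers often lose part of this response.

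Total counts per library ranged from 9846595 to 33809419. Vehicle replicate 3 at 24 h was the deepest, and all others held at most 15248512 counts. Markers of luminal prostate cells were abundant in all 28 libraries, with FOLH1 at 676 to 1530 CPM (read counts scaled to library size with TMM factors) and HOXB13 at 308 to 477 CPM. The androgen-driven markers KLK3 and KLK2 ranged from under 1 to 146 and 350.1 CPM. CD3E was at 0 in every library, and the endothelial marker CDH5, the leukocyte marker PTPRC and the basal marker TP63 reached at most 3 counts, while VWF and CD68 of the endothelial and leukocyte lists were above 0 in every library, at up to 55 and 31 counts. The summed level of 3 endothelial markers moved with R1881, from a range of 1.01 to 1.23 CPM with vehicle to 2.52 to 2.98 CPM at 24 h and from 0.603 to 1.28 CPM to 3.27 to 4.54 CPM at 72 h, nearly all of it VWF, and its part in the results was not tested. In a culture, fewer cells of a kind and less RNA per cell cannot be told apart. Below, "changed" means an edgeR false discovery rate (FDR) under 0.01 over all tested genes, and "called" means changed by more than 1.5-fold. Means of CPM carry the SD over the libraries of a group, 3 at 24 h and 4 at 72 h, and log2 fold changes carry their SE. The filter on low counts left 15948 genes at 24 h and 16074 at 72 h. It kept 7 of the 10 genes in both experiments and removed the 3 ligands.

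The receptors and SMADs other than TGFBR2 were well measured, and the ligands and TGFBR2 lay far below them. Divided by the length of the merged exons of each gene, levels with vehicle at 24 h were 5.63 CPM per kb for SMAD7, 5.41 for TGFBR1, 4.22 for SMAD4, 2.37 for SMAD3, 2.09 for SMAD2 and 1.80 for TGFBR3. TGFBR2 followed at 0.236 CPM per kb, TGFB1 at 0.153, TGFB2 at 0.0432 and TGFB3 at 0.0203. The libraries of SMAD7 and TGFBR1 overlapped, as did those of TGFBR2 and TGFB1 and those of TGFB2 and TGFB3, so these neighbours in the order did not separate. With vehicle at 72 h the order was TGFBR1 at 6.01, SMAD4 at 4.38, SMAD7 at 3.94, SMAD2 at 2.30, SMAD3 at 2.13 and TGFBR3 at 1.95 CPM per kb, and the last 3 of these overlapped from each to the next. With R1881 and SNX631 the order had moved for SMAD3 and TGFBR3, which stood at 0.740 and 2.90 CPM per kb. SMAD2 has 36.4 kb of merged exons since all annotated transcript forms are merged, which lowers its value per kb.

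**Figure D1:**
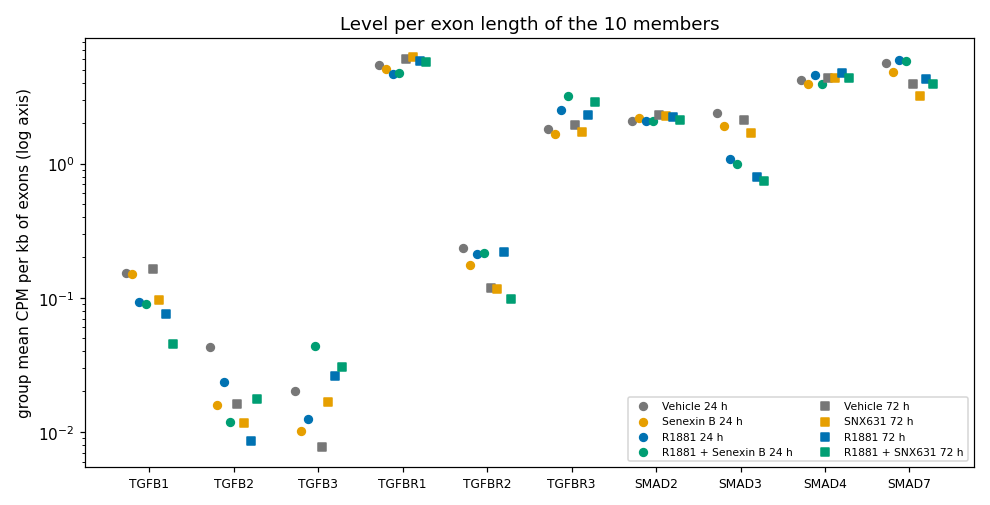
Group mean level of the 10 genes in CPM per kb of merged exons on a log axis, with circles for the 4 groups at 24 h and squares for the 4 groups at 72 h. TGFB1, TGFB2, TGFB3 and TGFBR2 lie below the other 6 genes in every group, and SMAD3 splits into groups without R1881 above and groups with R1881 below.

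The ligands gave few reads. TGFB1 (ENSG00000105329.11, chromosome 19, 41301587 to 41353911, minus strand, GRCh38) had 4, 6 and 23 counts with vehicle, 7, 4 and 8 with Senexin B, 4, 2 and 4 with R1881, and 2, 4 and 4 with both at 24 h. At 72 h it had 3, 7, 8 and 9 counts with vehicle, 0, 5, 8 and 3 with SNX631, 1, 2, 6 and 2 with R1881, and 2, 2, 3 and 1 with both. The 23 counts came from the library with the highest total, where they made 0.673 CPM. Group means of TGFB1 with R1881 lay below those without it, from 0.145 to 0.301 CPM against 0.313 to 0.535 CPM. TGFB2 (ENSG00000092969.12, chromosome 1, 218346235 to 218444619, plus strand) and TGFB3 (ENSG00000119699.8, chromosome 14, 75958099 to 75982991, minus strand) had at most 5 and 7 counts in any library and were at 0 in some libraries of most groups. In a fit without the filter on low counts no ligand reached an FDR under 0.01 in edgeR. The lowest ligand FDR there was 0.104 in edgeR, for TGFB1 with R1881 at 72 h, at a log2 fold change of -1.10. A change in the ligands was not detectable at this depth. TGFB1 shares 215 exon bases with HNRNPUL1 on the opposite strand, TGFB3 shares 163 with its antisense RNA TGFB3-AS1, and TGFB2 shares 1371 with TGFB2-OT1 on its own strand. Since the use of strand in counting is not given in the sources used here, such reads cannot be assigned with certainty.

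**Figure D2:**
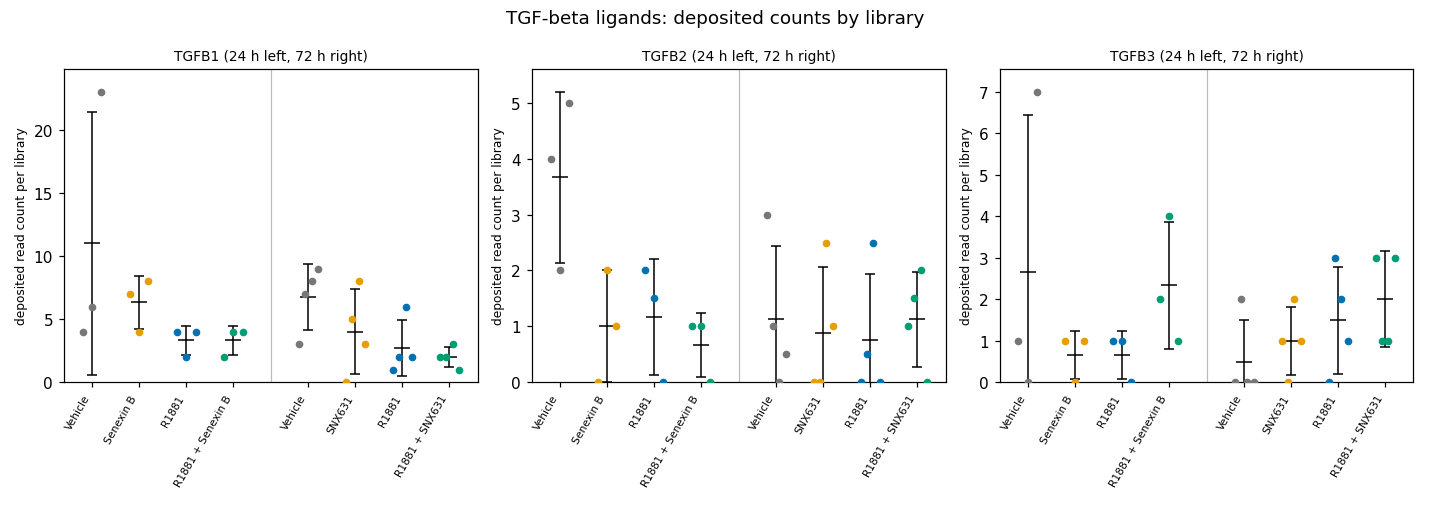
Deposited read counts of TGFB1, TGFB2 and TGFB3 in each of the 28 libraries, 24 h groups to the left and 72 h groups to the right of the grey line. Points are libraries and bars are the mean and SD, and all but the TGFB1 count of 23 in 1 vehicle library lie at or below 9.

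TGFBR1 (ENSG00000106799.14, chromosome 9, 99104038 to 99154192, plus strand), the type I receptor kinase, varied little. Its group means ranged from 32.1 to 37.0 CPM at 24 h and from 38.9 to 42.4 CPM at 72 h. It changed in 1 comparison of the 10, where SNX631-treated cells stood at 44.0, 40.4, 43.5 and 41.7 CPM and cells with R1881 and SNX631 at 36.7, 39.4, 39.7 and 40.0 CPM. These groups did not overlap, and the log2 fold change was -0.15 ± 0.046 (edgeR FDR 0.00511). The change, which was below the fold limit, was lost with DESeq2, without the low-count filter and with all 28 libraries in one fit, at FDR values of 0.0515, 0.0530 and 0.0167. It was also lost without replicate 1 of the group with both agents or replicate 1 or 3 of the SNX631 group, at edgeR FDR values of 0.0193 to 0.0234. At 24 h its log2 fold change with R1881 was -0.19 ± 0.066 (edgeR FDR 0.0149), outside the limit. That value was past the limit with a replicate block (edgeR FDR 0.00957), with library totals only (0.000907), without the low-count filter (0.00819), with all 28 libraries in one fit (0.00796), without replicate 3 of the vehicle group (0.00724) and without replicate 1 of the R1881 group (0.00227).

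TGFBR2 (ENSG00000163513.19, chromosome 3, 30606502 to 30694142, plus strand), the ligand-binding type II receptor kinase, was near the lower limit of measurement. It had 11, 20 and 29 counts with vehicle at 24 h and 7, 11, 4 and 6 with vehicle at 72 h, and was at most at 1.45 CPM in any library. At 72 h it had 14, 10, 12 and 9 counts with R1881, or 1.44, 0.826, 1.06 and 0.782 CPM. With R1881 and SNX631 it had 5, 5, 6 and 9 counts, or 0.395, 0.358, 0.413 and 0.662 CPM. All R1881 libraries lay above all libraries with both agents. The log2 fold change for SNX631 in R1881-treated cells was -1.14 ± 0.36 (edgeR FDR 0.00713), which was called. It was lost without the low-count filter, with a replicate block and in 5 of 16 fits that left out 1 library, namely replicate 1 or 3 of the R1881 group and replicate 1, 2 or 3 of the group with both agents, with edgeR FDR values of 0.0194 to 0.0432. For R1881 against vehicle at 72 h the value was 0.83 ± 0.35 (edgeR FDR 0.0335), and no comparison at 24 h passed the limit (edgeR FDR from 0.516 to 0.960). SNX631 without R1881 gave -0.04 ± 0.39 (edgeR FDR 0.950). The 72 h interaction was -1.10 ± 0.53 (edgeR FDR 0.178), so a difference of the SNX631 effect with R1881 was not shown.

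TGFBR3 (ENSG00000069702.11, chromosome 1, 91680343 to 91906335, minus strand), the co-receptor betaglycan, changed in 7 of the 10 comparisons. At 24 h it stood at 15.7, 15.97 and 15.3 CPM with vehicle, at 13.3, 14.7 and 15.5 CPM with Senexin B, at 21.6, 20.04 and 23.3 CPM with R1881, and at 28.5, 27.1 and 28.2 CPM with both. In the 72 h experiment the values were 15.6, 17.8, 16.5 and 18.1 CPM with vehicle, 14.7, 15.1, 14.7 and 14.99 CPM with SNX631, 20.6, 22.1, 19.2 and 18.5 CPM with R1881, and 25.7, 25.0, 26.7 and 23.5 CPM with both. In each experiment the libraries with R1881 lay above all libraries without it, and those with R1881 and inhibitor lay above those with R1881 alone. R1881 raised TGFBR3 by 0.49 ± 0.076 on the log2 scale at 24 h (edgeR FDR 1.71e-06) and by 0.94 ± 0.079 in Senexin B-treated cells (edgeR FDR 3.51e-12). At 72 h the values were 0.23 ± 0.069 (edgeR FDR 0.00493) and, in SNX631-treated cells, 0.74 ± 0.067 (edgeR FDR 1.57e-12). The larger value of each experiment was past the fold limit and the smaller was not. The rise with R1881 alone at 72 h was lost with library totals only (edgeR FDR 0.115), with DESeq2 (FDR 0.0241), and without replicate 1 or 2 of the R1881 group or replicate 1 or 3 of the vehicle group (edgeR FDR 0.0150 to 0.0444).

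The inhibitors moved TGFBR3 in R1881-treated cells. Senexin B raised it there by 0.37 ± 0.074 on the log2 scale (edgeR FDR 0.000194) and SNX631 by 0.31 ± 0.063 (edgeR FDR 8.44e-05). Without R1881 the values were -0.08 ± 0.080 for Senexin B and -0.20 ± 0.072 for SNX631 (edgeR FDR 0.476 and 0.0293). The Senexin B and vehicle libraries overlapped, while the SNX631 libraries all lay below the vehicle libraries, though outside the FDR limit. The interaction tests whether the androgen effect differed with inhibitor. It was 0.51 ± 0.096 at 72 h (edgeR FDR 0.000193), and it stayed past the limit in every alternative and when any single library was left out. At 24 h it was 0.45 ± 0.11 (edgeR FDR 0.0112), just outside the limit, and it passed without the low-count filter, with all 28 libraries in one fit and without replicate 3 of the R1881 group (edgeR FDR 0.00786, 0.00506 and 0.00887).

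The region before a RefSeq start of SMAD3 and of TGFBR3 is shown because these were the genes of the 10 called for R1881 against no R1881. Both windows lie inside the gene spans of GENCODE, which begin further upstream, at 67063763 for SMAD3 and at 91906335 for TGFBR3. Regions before those further upstream positions are not shown. RefSeq on GRCh38.p14 gives 26 windows of 250 bases before a start for the 10 genes. Capitals mark the GC box GGGCGG on either strand, the site of SP1-family factors.
SMAD3, chr15:67065352-67065601, plus strand, the most upstream of 5 starts: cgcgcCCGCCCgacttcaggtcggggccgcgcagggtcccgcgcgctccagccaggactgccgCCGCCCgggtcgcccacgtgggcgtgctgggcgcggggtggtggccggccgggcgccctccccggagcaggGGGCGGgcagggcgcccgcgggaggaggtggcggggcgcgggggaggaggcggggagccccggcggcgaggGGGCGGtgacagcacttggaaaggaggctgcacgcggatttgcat
TGFBR3, chr1:91886152-91886401, minus strand, its only listed start: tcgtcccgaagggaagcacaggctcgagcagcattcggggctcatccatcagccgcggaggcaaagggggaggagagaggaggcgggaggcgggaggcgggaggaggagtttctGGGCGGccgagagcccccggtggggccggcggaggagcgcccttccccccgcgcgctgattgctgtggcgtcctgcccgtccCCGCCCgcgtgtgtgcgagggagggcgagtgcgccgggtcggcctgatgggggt

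Both windows were rich in G and C, at 80.8% for SMAD3 and 73.6% for TGFBR3 against a median of 58% over all 35116 windows. The GC box occurred 4 times in the SMAD3 window and 2 times in the TGFBR3 window, and 42.6% of all windows held at least 1. Neither window held the SMAD hexamer CAGACA, found in 13.6% of all windows. The SMAD palindrome GTCTAGAC was in none of the 26 and in 0.182% of all windows. The hexamer was in 4 of the 26 windows, of TGFB2, TGFBR1 and 1 internal SMAD3 start. All motifs were searched on both strands, and these letters in a window of 250 bases say nothing of binding there or elsewhere.

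SMAD3 (ENSG00000166949.17, chromosome 15, 67063763 to 67195195, plus strand), a receptor-activated SMAD that binds DNA, had the widest range of the 7 tested genes. At 24 h it stood at 21.0, 21.3 and 22.4 CPM with vehicle, at 15.8, 17.3 and 18.6 CPM with Senexin B, at 10.2, 10.96 and 8.32 CPM with R1881, and at 9.01, 8.73 and 9.37 CPM with both. At 72 h it stood at 21.9, 17.6, 18.5 and 19.5 CPM with vehicle, at 14.6, 14.007, 17.2 and 15.6 CPM with SNX631, at 7.32, 7.26, 8.12 and 6.08 CPM with R1881, and at 6.17, 6.94, 7.23 and 6.62 CPM with both. The libraries with R1881 lay below all libraries without it in both experiments, and without R1881 the inhibitor libraries lay below the vehicle libraries. R1881 lowered SMAD3 2.21-fold at 24 h, from 21.6 ± 0.738 to 9.82 ± 1.35 CPM (log2 fold change -1.14 ± 0.094, edgeR FDR 9.69e-13). The fall at 72 h was 2.72-fold, from 19.4 ± 1.85 to 7.20 ± 0.839 CPM (log2 fold change -1.44 ± 0.098, edgeR FDR 2.10e-16). In inhibitor-treated cells the log2 fold changes were -0.94 ± 0.10 at 24 h and -1.21 ± 0.097 at 72 h (edgeR FDR 1.02e-09 and 3.98e-14). These 4 calls were kept under every alternative and with any single library left out.

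Both inhibitors alone lowered SMAD3 as well, by less than the fold limit. The log2 fold change was -0.31 ± 0.077 with Senexin B (edgeR FDR 0.00149) and -0.33 ± 0.077 with SNX631 (edgeR FDR 0.000658). The change with Senexin B was lost with DESeq2 (FDR 0.0418), without replicate 3 of the vehicle group (edgeR FDR 0.0228) and without replicate 1 of the Senexin B group (edgeR FDR 0.0214). In R1881-treated cells the values were -0.11 ± 0.12 and -0.10 ± 0.11 (edgeR FDR 0.512 and 0.505), and the groups overlapped. The interaction was 0.21 ± 0.14 at 24 h and 0.23 ± 0.14 at 72 h (edgeR FDR 0.499 and 0.312), so a difference of the androgen effect with inhibitor was not shown. The comparisons of R1881 and of inhibitor against vehicle share the vehicle libraries. SMAD3 shares 182 exon bases with an antisense RNA, AC087482.1. The summed level of 7 fibroblast and stroma markers also moved with R1881, from a range of 28.6 to 31.1 CPM with vehicle down to 16.5 to 18.3 CPM at 24 h and from 33.96 to 37.8 CPM down to 18.8 to 26.3 CPM at 72 h, and it ranged from 22.7 to 23.7 CPM with Senexin B and from 31.3 to 33.8 CPM with SNX631 alone. COL1A1 and COL3A1 made up most of it, while COL1A2, DCN and PDGFRA had at most 2 counts in any library. Its part in the SMAD3 result was not tested.

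SMAD2 (ENSG00000175387.16, chromosome 18, 47808957 to 47931146, minus strand), the other SMAD activated by the TGF-beta receptor, did not pass the limit in any comparison. Its group means ranged from 75.9 to 79.3 CPM at 24 h and from 76.3 to 83.7 CPM at 72 h. Its lowest FDR was 0.0130 in edgeR, for R1881 in SNX631-treated cells, at a log2 fold change of -0.12 ± 0.044. That value was past the limit with library totals only (edgeR FDR 1.64e-05) and without replicate 3 of the SNX631 group (0.00638), replicate 1 of the R1881 group (0.00643) or replicate 4 of the group with both agents (0.00451). With library totals only SMAD2 was also past the limit for R1881 at 72 h (edgeR FDR 0.000989) and for R1881 in Senexin B-treated cells (0.00627).

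SMAD4 (ENSG00000141646.15, chromosome 18, 51028394 to 51085045, plus strand), the common partner of the activated SMADs, was lowered by Senexin B in R1881-treated cells. It stood at 59.7, 60.4 and 61.2 CPM with R1881 and at 51.9, 51.2 and 50.6 CPM with both, without overlap, at a log2 fold change of -0.23 ± 0.051 (edgeR FDR 0.000594). Without R1881 it stood at 52.0, 58.8 and 55.2 CPM with vehicle and at 52.7, 49.1 and 52.2 CPM with Senexin B, where the groups overlapped (log2 fold change -0.09 ± 0.048, edgeR FDR 0.164). The 72 h libraries stood at 60.8, 63.7, 63.7 and 60.3 CPM with R1881 and at 55.3, 54.9, 55.7 and 62.4 CPM with both, and replicate 4 of the latter group lay within the R1881 range. That log2 fold change was -0.14 ± 0.044 (edgeR FDR 0.0103), just outside the limit, and was past it with library totals only (edgeR FDR 0.00176), without replicate 4 of the group with both agents (0.000883) and without replicate 1 or 3 of the vehicle group (0.00988 and 0.00725). Without R1881 at 72 h SMAD4 stood at 54.7, 57.6, 62.2 and 55.5 CPM with vehicle and at 56.5, 58.0, 56.4 and 56.1 CPM with SNX631, within the vehicle range. The interaction was -0.15 ± 0.070 at 24 h and -0.12 ± 0.062 at 72 h (edgeR FDR 0.278 and 0.236). A difference of the inhibitor effect with R1881 was thus not shown. SMAD4 shares 967 exon bases with AC091551.1, a protein-coding gene on the same strand, and its deposited counts were fractional in part.

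SMAD7 (ENSG00000101665.10, chromosome 18, 48919853 to 48952052, minus strand), the inhibitory SMAD, was lower with either inhibitor alone. At 24 h it stood at 25.3, 28.6 and 31.2 CPM with vehicle, at 24.5, 23.5 and 24.3 CPM with Senexin B, at 28.6, 31.2 and 29.4 CPM with R1881, and at 28.8, 30.0 and 28.6 CPM with both. At 72 h levels were 20.5, 19.5, 20.1 and 19.3 CPM with vehicle, 16.4, 17.5, 15.1 and 14.7 CPM with SNX631, 20.004, 23.7, 21.2 and 21.6 CPM with R1881, and 20.2, 21.4, 18.9 and 18.2 CPM with both. The inhibitor libraries without R1881 lay below all other libraries of their experiment. The log2 fold change was -0.25 ± 0.066 with Senexin B (edgeR FDR 0.00321) and -0.31 ± 0.071 with SNX631 (edgeR FDR 0.000446). The change with Senexin B was lost with DESeq2 (FDR 0.0566) and without replicate 3 of the vehicle group (edgeR FDR 0.130), replicate 2 of the Senexin B group (0.0225) or replicate 3 of the Senexin B group (0.0140). R1881 raised SMAD7 in inhibitor-treated cells by 0.26 ± 0.071 at 24 h and 0.27 ± 0.069 at 72 h (edgeR FDR 0.00221 and 0.000710). With library totals only these were lost, at edgeR FDR values of 0.0244 and 0.0323, and the first was lost with DESeq2 as well (FDR 0.0180), without replicate 2 of the Senexin B group (edgeR FDR 0.0165) and, narrowly, without replicate 2 of the group with both agents (0.01004). R1881 without inhibitor gave 0.04 ± 0.065 and 0.12 ± 0.067 (edgeR FDR 0.637 and 0.135). The interaction was 0.22 ± 0.096 at 24 h and 0.16 ± 0.097 at 72 h (edgeR FDR 0.219 and 0.327). A difference of the androgen effect with inhibitor was thus not shown. The fall with inhibitor alone and the rise with R1881 in inhibitor-treated cells share the libraries with inhibitor alone.

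**Figure D3:**
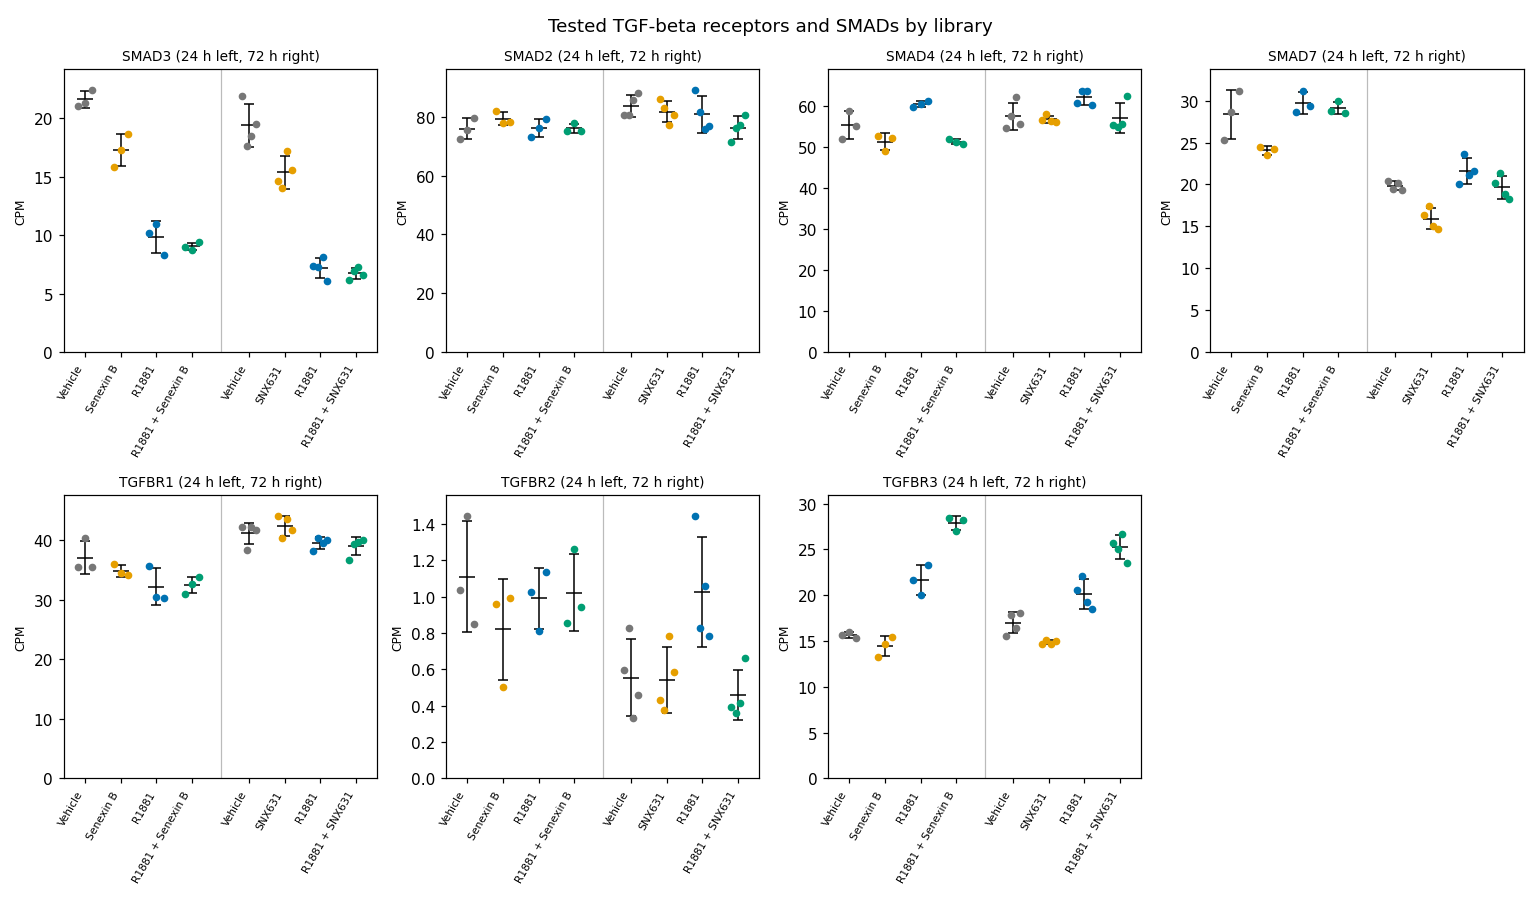
CPM of the 7 tested genes in each of the 28 libraries, 24 h groups to the left and 72 h groups to the right of the grey line. Points are libraries and bars are the mean and SD. SMAD3 is lower and TGFBR3 higher in the groups with R1881, and the SMAD7 inhibitor groups without R1881 lie lowest in their experiments.

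In the R1881 comparisons the share of changed genes among the 7 did not exceed that among all genes tested. With R1881 against vehicle at 24 h 2 genes changed and 1 was called, beside 48.4% and 19.0% of all genes tested, and at 72 h the counts were again 2 and 1, beside 52.2% and 19.8%. In inhibitor-treated cells R1881 changed 3 genes at 24 h with 2 called, beside 47.5% and 18.9%, and 4 genes at 72 h with 2 called, beside 57.3% and 22.0%. Senexin B against vehicle changed 2 genes with 0 called, beside 25.1% and 3.79%, and in R1881-treated cells it changed 2 with 0 called, beside 22.7% and 3.12%. SNX631 against vehicle changed 2 genes with 0 called, beside 26.9% and 4.77%, and in R1881-treated cells it changed 2 with 1 called, beside 33.1% and 4.12%. The interaction changed 0 genes at 24 h, beside 2.09% changed and 0.577% called, and 1 gene at 72 h with 0 called, beside 7.09% and 1.19%. At an unadjusted p under 0.05 in edgeR, 3 of the 7 genes had an interaction at 24 h and 2 at 72 h, beside 16.7% and 25.1% of all genes tested. The 7 genes had a median log2 fold change with R1881 of 0.001 at 24 h and 0.098 at 72 h, beside -0.016 and -0.014 over all genes.

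**Figure D4:**
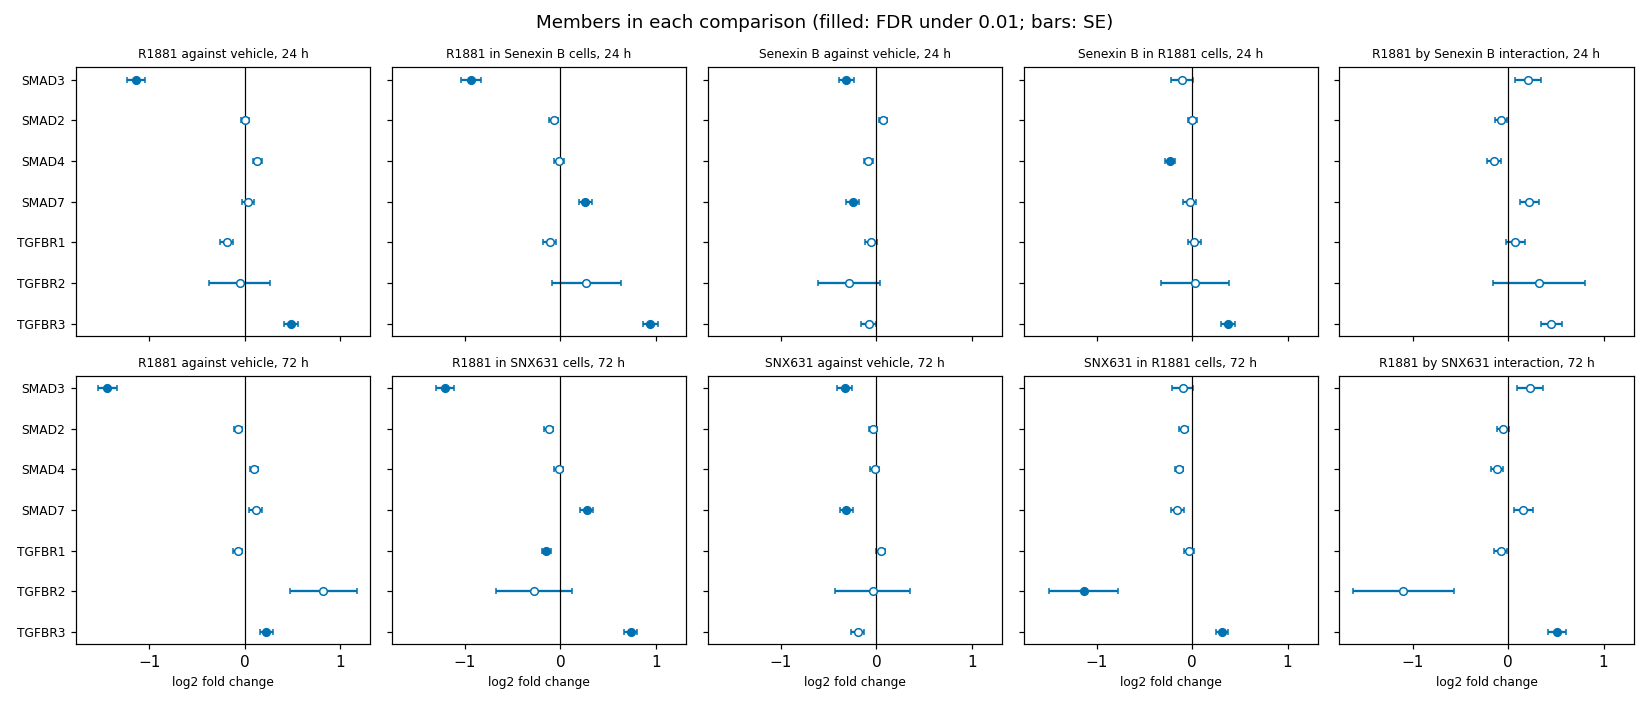
Log2 fold change of the 7 tested genes in each of the 10 comparisons, 24 h in the upper and 72 h in the lower row. Points are estimates, bars are the SE, and filled points passed an FDR of 0.01. SMAD3 is lowest in the R1881 panels of both experiments, and TGFBR3 is to the right of 0 in the R1881 and interaction panels.

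The genes whose pattern was most like that of SMAD3 over the 28 libraries, among 15681 genes tested in both experiments, were DUSP8, TIMP2, DDC, SRCIN1 and SUSD6, with Pearson r of log2 CPM from 0.970 to 0.975. The libraries are grouped by treatment, so these values describe likeness only. DUSP8 encodes a phosphatase of MAP kinases, TIMP2 an inhibitor of metalloproteinases and DDC the enzyme that makes dopamine from L-DOPA. All 5 were called lower with R1881 at both times, with log2 fold changes at 24 and 72 h of -2.35 and -2.63 for DDC and -0.62 and -0.80 for DUSP8. They were picked for likeness to SMAD3, which itself fell with R1881. Their fall was thus largely set by the choice and is no separate result.

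Beyond the 10 genes, 74 further genes of the pathway were listed by role, with earlier results of these data known. Of these, 57 passed the filter in both experiments. R1881 called 17 of them at 24 h, 8 higher and 9 lower, and 16 at 72 h, 10 higher and 6 lower. These were 29.8% and 28.1% of the listed genes tested, beside 19.0% and 19.8% of all genes. In inhibitor-treated cells it called 19, 8 higher and 11 lower, and 20, 10 higher and 10 lower, or 33.3% and 35.1% beside 18.9% and 22.0%. Senexin B called 3 without and 4 with R1881, or 5.26% and 7.02% beside 3.79% and 3.12%. SNX631 called 1 and 2, or 1.75% and 3.51% beside 4.77% and 4.12%. The interaction called 1 gene in each experiment, or 1.75% beside 0.577% and 1.19%, which was IGFBP3, a binding protein of insulin-like growth factors, named here after its values were seen, with log2 interactions of -0.62 ± 0.065 and -0.81 ± 0.11 (edgeR FDR 5.58e-08 and 8.81e-07). The 24 h call was lost in 1 fit that left out a library. At 72 h IGFBP3 ranged from 339 to 603 CPM with SNX631 alone, beside 335 to 362 CPM with vehicle. The listed genes had a median log2 fold change with R1881 of -0.06 at 24 h and 0.05 at 72 h.

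Among targets of the pathway, SNAI2, a transcription factor of epithelial-mesenchymal change, rose from 0.235 ± 0.0420 to 15.8 ± 0.988 CPM with R1881 at 24 h and from 0.364 ± 0.256 to 22.2 ± 1.75 CPM at 72 h. Its log2 fold changes were 6.10 ± 0.39 and 5.89 ± 0.36 (edgeR FDR 1.36e-22 and 5.31e-27), from vehicle libraries of 1 to 8 counts. The parathyroid-hormone-like gene PTHLH and the metalloproteinase inhibitor TIMP3 fell with R1881, with log2 fold changes at 24 and 72 h of -1.50 ± 0.37 and -2.52 ± 0.52 for PTHLH and -1.31 ± 0.42 and -1.89 ± 0.41 for TIMP3 (edgeR FDR from 3.92e-06 to 0.00378). Libraries with R1881 alone held 0 to 11 counts of PTHLH and 3 to 6 of TIMP3. Of the 15 tested target genes, R1881 called 3 higher and 5 lower at 24 h and 4 of each at 72 h, beside 19.0% and 19.8% of all genes in either direction. The TIMP3 call at 24 h was lost with DESeq2 (FDR 0.0417) and without replicate 2 or 3 of the vehicle group or any replicate of the R1881 group (edgeR FDR 0.0124 to 0.0201).

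Among regulators of the receptors and SMADs, PMEPA1, which binds activated SMADs and holds back the pathway, rose from 48.4 ± 1.20 to 213 ± 6.29 CPM at 24 h and from 46.3 ± 1.41 to 186 ± 4.34 CPM at 72 h. Its log2 fold changes were 2.14 ± 0.042 and 1.99 ± 0.036 (edgeR FDR 6.06e-29 and 1.00e-34). CTBP1, a corepressor, fell from 231 ± 5.50 to 98.5 ± 2.35 CPM and from 223 ± 5.06 to 99.6 ± 3.45 CPM, with log2 fold changes of -1.23 ± 0.037 and -1.18 ± 0.032 (edgeR FDR 1.02e-23 and 9.83e-29). BAMBI, a decoy receptor, fell with R1881 at 24 h, at a log2 fold change of -0.83 ± 0.11 without and -1.003 ± 0.10 with Senexin B (edgeR FDR 2.86e-08 and 4.32e-10). At 72 h BAMBI was not called, but stood at 23.0 ± 2.15 CPM with vehicle and 16.9 ± 0.786 CPM with R1881, without overlap. The deubiquitinase USP11 was lower with Senexin B in R1881-treated cells, at -0.59 ± 0.050 (edgeR FDR 6.43e-11), next to the fold limit, which it missed with all 28 libraries in one fit and without replicate 3 of the vehicle group or replicate 2 or 3 of the group with both agents (-0.56 to -0.58). Without R1881 USP11 stood at 94.2 ± 1.20 CPM with vehicle and 74.2 ± 1.30 CPM with Senexin B, without overlap. With SNX631 at 72 h USP11 was not called but was also lower, without overlap. It stood at 65.5 ± 4.36 CPM with R1881 and 46.9 ± 3.20 CPM with both agents. Without R1881 it stood at 85.3 ± 3.86 CPM with vehicle and 70.3 ± 2.46 CPM with SNX631.

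Among genes of latency and activation, THBS1, a matrix protein that activates latent ligand, rose with R1881 at 24 h by 3.31 ± 0.45 on the log2 scale (edgeR FDR 2.68e-09), and FBN1, which holds latent complexes in the matrix, rose at 72 h by 2.49 ± 0.28 (edgeR FDR 1.45e-11). Both were also higher with R1881 at the other time. THBS1 went from 0.354 ± 0.117 to 1.38 ± 0.267 CPM at 72 h. FBN1 went from 0.660 ± 0.226 to 1.79 ± 0.809 CPM at 24 h. The vehicle libraries held only 3 to 7 counts of THBS1 and 4 to 14 of FBN1. LTBP1, which binds latent ligand, fell with R1881, at log2 fold changes of -0.91 ± 0.12 at 24 h and -0.87 ± 0.10 at 72 h (edgeR FDR 7.50e-08 and 1.71e-09), and rose with Senexin B in R1881-treated cells by 0.77 ± 0.13 (edgeR FDR 2.71e-05). Without R1881 LTBP1 stood at 9.10 ± 0.867 CPM with vehicle and 11.9 ± 0.482 CPM with Senexin B, without overlap. The coactivator RUNX2 rose with R1881 at 24 h by 1.76 ± 0.36 without and 2.54 ± 0.45 with Senexin B (edgeR FDR 5.03e-05 and 1.19e-06), and at 72 h by 1.73 ± 0.31 without and 1.67 ± 0.27 with SNX631 (edgeR FDR 2.52e-06 and 2.95e-07). RUNX2 had 4 to 19 counts in the vehicle libraries at 24 h and 3 to 9 at 72 h.

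With the inhibitors, BHLHE40, a transcriptional repressor and target gene, was called higher in all 4 comparisons, by 0.83 ± 0.11 and 1.11 ± 0.089 with Senexin B without and with R1881 and by 0.59 ± 0.11 and 0.98 ± 0.058 with SNX631 (edgeR FDR from 7.52e-17 to 1.81e-05). The call with SNX631 alone lay next to the fold limit and was lost with library totals only (0.56) and without replicate 2 of the vehicle group (0.51) or replicate 1 or 2 of the SNX631 group (0.57 and 0.58). FN1, the matrix protein fibronectin, rose in R1881-treated cells by 0.74 ± 0.058 with Senexin B and by 0.67 ± 0.039 with SNX631 (edgeR FDR 1.04e-11 and 7.20e-17). Without R1881 FN1 was not called with either inhibitor but was also higher, without overlap. At 24 h it ranged from 202 to 213 CPM with vehicle and from 273 to 284 CPM with Senexin B. At 72 h it ranged from 257 to 271 CPM with vehicle and from 341 to 361 CPM with SNX631. With R1881 alone FN1 was lower, at 85.5 to 113 CPM at 24 h and 141 to 164 CPM at 72 h. CDKN2B, a cell cycle inhibitor, was lower with Senexin B alone, at -0.98 ± 0.31 (edgeR FDR 0.00901). The CDKN2B call was lost without the low-count filter (edgeR FDR 0.0103), with a replicate block (0.0128) and in 9 of 12 fits without 1 library, with FDR values up to 0.0830 without replicate 3 of the vehicle group, and DESeq2 gave it no adjusted p. PTHLH was higher there, at 0.80 ± 0.22 (edgeR FDR 0.00431), a call lost with DESeq2 (FDR 0.0456) and without replicate 1 or 3 of the vehicle group or replicate 2 or 3 of the Senexin B group (edgeR FDR 0.0116 to 0.0289). The doses and times of the inhibitors differ, so these values stand side by side and are not compared.

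**Figure D5:**
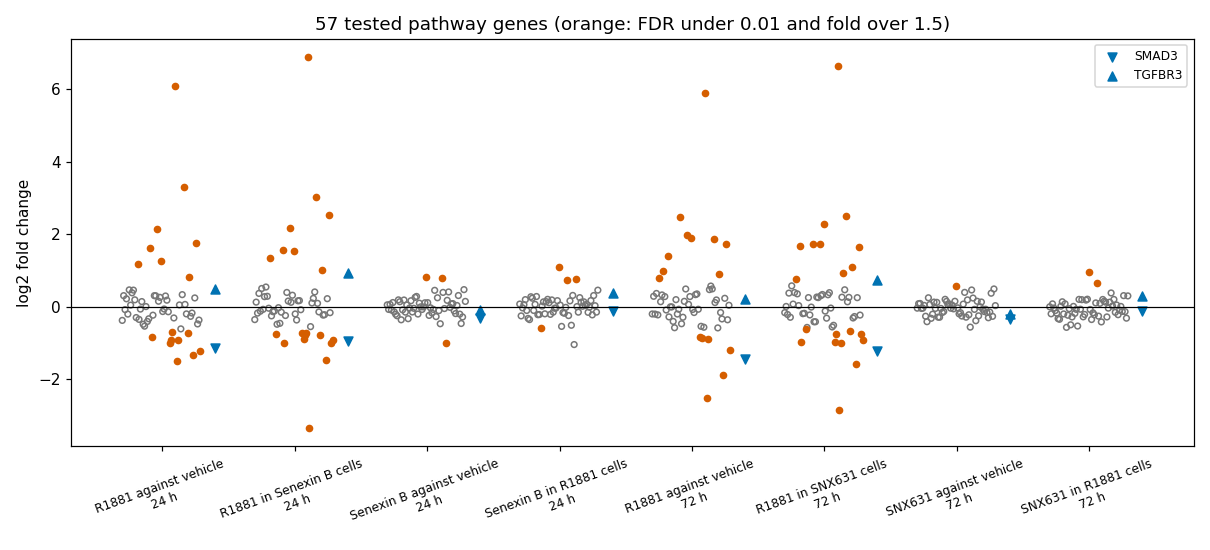
Log2 fold change of the 57 tested pathway genes in the 8 comparisons other than interactions, with 1 point per gene. Orange points passed an FDR of 0.01 and a fold of 1.5, and triangles show SMAD3 (down) and TGFBR3 (up). The R1881 comparisons hold from 16 to 20 called genes and the inhibitor comparisons from 1 to 4.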

How the data were processed

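RNA was sequenced from 28 LNCaP libraries. The submitters' processing notes name FastQC, cutadapt 2.8, STAR 2.7.2b, featureCounts and Subread 2.0.3, with the builds GRCh38.p13 and GRCm39; the annotation release and use of strand in counting are not given in the sources used here. The authors deposited expected counts per gene, not scaled to depth, with 16.9% of values above 0 fractional, and values were rounded to whole counts. The 2 added non-human entries held 0 counts and were left out.

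The 2 experiments were modelled separately, each over its 4 groups, with the quasi-likelihood test of edgeR 4.0.16 (R 4.3.3, TMM). filterByExpr kept genes by its default limits, 10 for the count and 15 for the total, and Benjamini-Hochberg adjustment ran over all genes tested. SEs are Wald SEs. CPM used TMM over all libraries. Limits were an FDR of 0.01 and a fold of 1.5, those of the study. Totals ranged from 9846595 to 33809419, and errors cover counting and the spread of these libraries only. The genes and lists were chosen with earlier results of these data known. Named genes are all 10 members, up to 3 highest and 3 lowest called pathway genes per comparison other than interactions, and 5 genes closest to SMAD3 by r. Positions are from GENCODE 29. Alternatives were DESeq2 size factors, library totals only, DESeq2 1.42.0 Wald test, no filter, all 28 libraries in 1 fit, an FDR of 0.05, a replicate block and leaving out each library. Scripts were tested on simulated data. Figures used matplotlib in Python. One of the marker genes is not reported here.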

Additional observations from a re-analysis of the deposited data

Results flagged for a closer look

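Of 40 combinations of a gene and a group of 4 libraries, 5 held 1 library that stood far from the other 3 by Dixon's ratio of its gap to the range of the group, above its critical value. Chance flags about 1 in 20 groups. TGFB1 in the 72 h R1881 group had a ratio of 0.834, with 1 library at 0.530 CPM and the others at up to 0.174 CPM. TGFB2 in the same group and TGFB3 in the 72 h vehicle group had a ratio of 1, since after rounding to whole counts 1 library was above 0 and 3 were at 0. TGFBR1 in the 72 h vehicle group had a ratio of 0.882, with 1 library at 38.4 CPM and the others at 41.7 to 42.2 CPM. SMAD4 with R1881 and SNX631 had a ratio of 0.897, with 1 library at 62.4 CPM and the others at 54.9 to 55.7 CPM. The effect of R1881 on TGFBR3 differed between SNX631-treated cells and cells without it, with a log2 interaction of 0.512 at 72 h in edgeR.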

How the results depend on the processing

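Of 70 member results in edgeR, 20 passed the FDR limit and all 20 kept their direction in every alternative and with any single library left out. Of these, 13 stayed past the limit in every alternative and 14 with any library left out. Among the other 50, 12 changed direction in some fit, 7 passed in an alternative and 6 without 1 library. The number of members changed by R1881 against vehicle at 24 h moved from 2 to 4 at an FDR of 0.05. At 72 h it moved from 2 to 1 with DESeq2 and lay between 1 and 2 with a library left out. The 24 h interaction moved from 0 to 1 with all 28 libraries in one fit, at an FDR of 0.05 and without the filter, and lay between 0 and 1 with a library left out. Senexin B against vehicle moved from 2 to 0 with DESeq2 and lay between 0 and 2. SNX631 in R1881-treated cells moved from 2 to 1 with DESeq2, which gave TGFBR2 no adjusted p there, without the filter and with a replicate block, and lay between 1 and 3. Pathway calls moved from 3 to 1 for Senexin B with DESeq2 (1 to 3 with a library left out), from 1 to 0 for SNX631 with library totals only (0 to 2), and between 0 and 1 for the 24 h interaction. The cause was not tested. With library totals only the median of all genes shifted by -0.102 and -0.108 on the log2 scale for R1881 at 72 h without and with SNX631. The called genes were then 1299 higher and 2121 lower in place of 1559 and 1626, and 1311 and 2435 in place of 1619 and 1924. At 24 h the split for R1881 was 1356 and 1811 in place of 1565 and 1465. The correlation of same-numbered libraries averaged from 0.002 to 0.022 at 24 h, beside -0.012 to -0.001 for other numbers. At 72 h it averaged from -0.018 to 0.002, beside -0.001 to 0.006. In all, 7 of 12 libraries at 24 h and 2 of 16 at 72 h were closest to one of their own number. These values do not settle whether libraries of the same number belong together. The replicate block brought TGFBR1 with R1881 at 24 h past the limit. It took TGFBR2 with SNX631 in R1881-treated cells and CDKN2B with Senexin B out of the limit. It changed no other call among the members and the pathway genes named by rule. Low counts limit TGFBR2 and the ligands, and in some groups the pathway genes SNAI2, THBS1, FBN1, RUNX2, PTHLH and TIMP3.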
